A study of Mus musculus with 18 samples.

Results

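The genes described here are 34 genes of cell proliferation and DNA replication, chosen by name for their roles in the cell cycle, of which 32 were measured among 30142 genes in all. A gene entered when a probe set carried its symbol and no other. Ccnb1 has no such probe set in the annotation used and was not analysed here, and the 1 probe set that carries Mcm7 also carries Mir25 and Mir93 and is left out. No member had more than 1 probe set. The cells came from lungs of TCF/Lef:H2B/GFP mice aged 8 to 12 weeks, in which a histone-tagged green fluorescent protein (GFP) reports transcription by TCF/Lef factors, the nuclear partners of beta-catenin in Wnt signalling. Dispase freed the cells of lungs with their trachea and bronchi, a source the labels name distal lung. CD31 and CD45 positive cells were depleted, and living EpCAM positive epithelial cells were then enriched and sorted, each sample pooling 3 to 4 animals. Cells were collected by reporter level as Wnt-high (Wnthigh in the labels, GFPhigh), Wnt-low (Wntlow, GFPlow) and Wnt-negative (Wntnegative, GFPneg) cells, with 6 arrays in each group. Experiments 4, 5, 7, 8 and 9 gave an array of each group, experiment 2 gave only a Wnt-high one, and experiment 3 one each of Wnt-low and Wnt-negative cells. The same reporter allele, age range and dissociation apply to all groups, so no group lacks the reporter and Wnt-negative cells serve as the reference. GFP level, not a treatment, separates the groups, and the tagged histone is a long-lived protein, so its level need not follow current signalling. Because each array holds a pool of sorted cells, fewer cells of a dividing type and less RNA per cell cannot be told apart.

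A cell that divides first builds the enzymes of DNA synthesis and then those of mitosis. Before replication, cyclin E and E2F factors drive entry into S phase, the MCM helicase is loaded onto origins, and PCNA holds the polymerases on DNA while ribonucleotide reductase and thymidylate synthase supply nucleotides. Cyclins A and B with CDK1 then drive entry into mitosis, spindle motors and Aurora and Polo kinases arrange the chromosomes, and the checkpoint kinases BUB1 and BUBR1 restrain CDC20 until every chromosome is attached. Transcripts of the mitotic genes are scarce in resting cells, and most epithelial cells of an adult lung are at rest. Alveolar type II cells and club cells can divide to renew the epithelium, whereas ciliated cells are differentiated and do not.

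Many of these genes are switched off in resting cells through short promoter elements, so the promoters of 5 members that carry the group differences are shown. The mitotic elements are the cell cycle genes homology region, searched as TTTGAA or TTCGAA, and the CCAAT box, searched as CCAAT. The third, the E2F site of replication genes, was searched as TTCCCGC or TTGGCGC, and as TTCGCGC or TTGCCGC. All were searched on both strands in the 250 bases before the annotated start, in promoters from RefSeq on GRCm38.p6, and a match on the other strand appears in its reverse complement. Capitals mark the matches, each sequence is written 5′ to 3′ in the direction of its gene, and all 5 genes lie on the minus strand. The windows are chr7:135716380-135716629 for Mki67, chr2:127831860-127832109 for Bub1, chr4:118437344-118437593 for Cdc20, chr1:128359706-128359955 for Mcm6 and chr9:61946800-61947049 for Kif23. Mki67, Bub1, Cdc20 and Mcm6 were lower in Wnt-high cells than in Wnt-negative cells, and Kif23 was the member that was higher.
Mki67: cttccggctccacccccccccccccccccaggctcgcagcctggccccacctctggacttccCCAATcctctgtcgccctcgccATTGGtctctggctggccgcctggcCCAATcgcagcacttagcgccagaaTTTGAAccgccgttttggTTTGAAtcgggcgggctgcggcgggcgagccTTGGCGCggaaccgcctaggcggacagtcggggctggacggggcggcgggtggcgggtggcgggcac
Bub1: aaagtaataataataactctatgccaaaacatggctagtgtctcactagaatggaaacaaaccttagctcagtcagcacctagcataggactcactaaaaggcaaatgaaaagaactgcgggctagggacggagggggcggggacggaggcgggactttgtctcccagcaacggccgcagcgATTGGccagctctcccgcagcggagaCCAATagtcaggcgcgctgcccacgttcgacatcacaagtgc
Cdc20: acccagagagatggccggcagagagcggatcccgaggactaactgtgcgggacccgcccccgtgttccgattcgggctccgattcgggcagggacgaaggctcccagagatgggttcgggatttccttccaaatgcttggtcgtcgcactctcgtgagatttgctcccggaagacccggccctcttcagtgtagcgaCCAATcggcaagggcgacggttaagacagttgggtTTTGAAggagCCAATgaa
Mcm6: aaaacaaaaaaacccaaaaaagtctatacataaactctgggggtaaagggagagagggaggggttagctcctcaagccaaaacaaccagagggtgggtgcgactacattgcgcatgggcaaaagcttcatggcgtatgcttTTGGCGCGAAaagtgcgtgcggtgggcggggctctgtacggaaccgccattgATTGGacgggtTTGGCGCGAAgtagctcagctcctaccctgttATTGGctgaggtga
Kif23: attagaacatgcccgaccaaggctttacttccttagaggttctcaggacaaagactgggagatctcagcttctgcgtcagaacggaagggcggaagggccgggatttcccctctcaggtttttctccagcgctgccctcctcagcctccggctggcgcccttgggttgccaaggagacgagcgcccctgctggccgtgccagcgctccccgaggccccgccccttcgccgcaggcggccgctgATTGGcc

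A promoter was at hand for 26 of the 32 measured members. The CCAAT box stood in 21 of these 26 (80.8%), against 33.8% of 32851 promoters of the same length. The cell cycle genes homology region stood in 9 of 26 (34.6%), against 17.1% of all promoters, and the E2F letters stood in 5 of 26 (19.2%), against 7.89%. Among 18856 measured protein-coding genes the shares were 34.9%, 15.2% and 10.3%, in the same order. Mki67 held all 3 elements, with the homology region at −116 and −98, counted in bases from the start. Cdc20 held its homology region at −18, between CCAAT boxes at −53 and −8. Bub1 held only CCAAT boxes, at −68 and −42, and Kif23 a single one at −7. Mcm6 held no homology region, but 4 matches to the E2F letters at −109, −106, −46 and −43, of which neighbours overlap on opposite strands. Among the members lower in Wnt-high cells than in Wnt-negative cells, 13 of 18 promoters held a CCAAT box (72.2%) and 6 of 18 the homology region (33.3%). Neither share was above that of all 26 members (80.8% and 34.6%). The start is that of the promoter annotation and lies inside the annotated span of some genes. The span of Mki67 reaches chr7:135716450 and holds its E2F match, and that of Kif23 reaches chr9:61946810 and holds its CCAAT box. The spans of Aurka and E2f1 cover their whole windows. A match of letters is not a bound site.

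**Figure D1:**
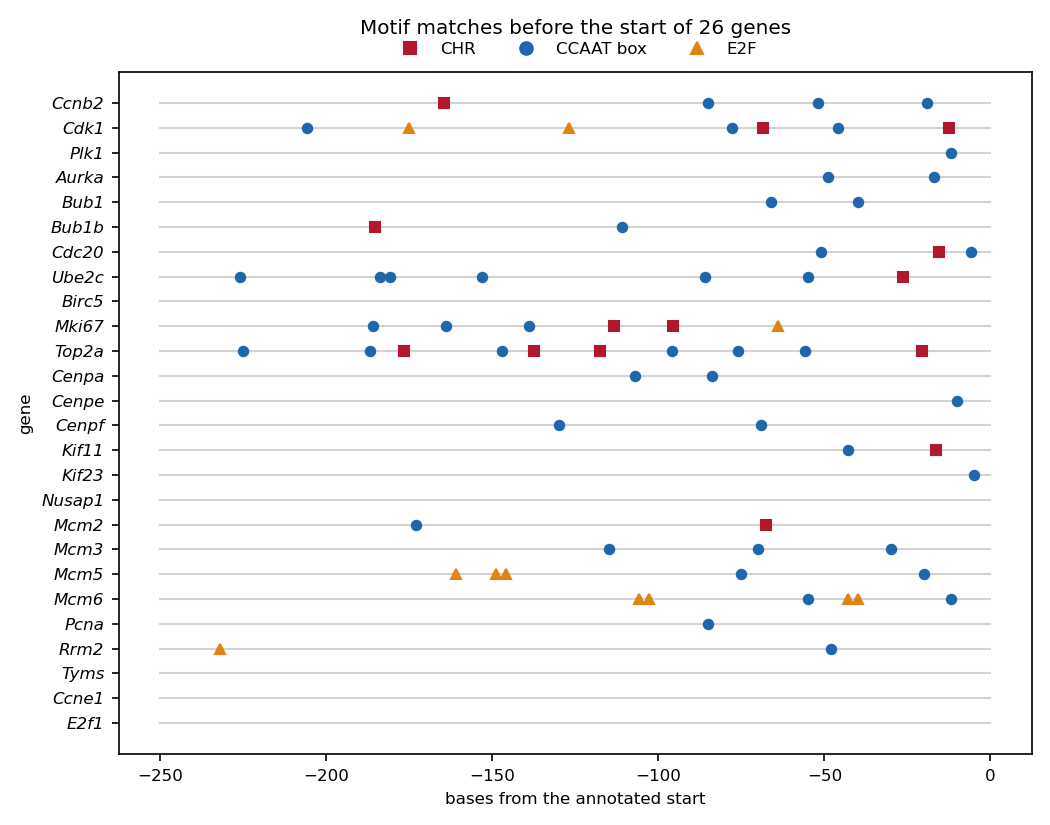
Matches of 3 promoter elements in the 250 bases before the start of 26 member genes, with bases from the annotated start on the horizontal axis and 1 line per gene. Red squares are the cell cycle genes homology region, blue circles the CCAAT box and orange triangles the E2F letters, and 21 lines carry at least 1 CCAAT box.

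The measured values are log2 values of Affymetrix arrays, normalised by the authors in 2 runs of 9 arrays, experiments 2 to 5 and experiments 7 to 9, each with 3 arrays of each group. Array medians were 4.62 to 4.77 in the first and 3.55 to 3.69 in the second of these runs, so levels are compared within a run only. Results are log2 differences of deposited values and are not turned into RNA ratios, since some values reached 19.93, above the limit of 16 of a 16-bit scanner. A background level was set on each array at the 95th percentile of 23 background control probe sets, and lay at 4.57 to 5.17. Of the 32 members, 16 were above it on all 9 arrays of experiments 2 to 5, but only 5 (Pcna, Tyms, Mcm4, Kif23 and Mcm6) on all 9 arrays of experiments 7 to 9. On the arrays of experiments 7 to 9, 15 members were never above it, and E2f1 was above it on no array of either run. Values repeat in the later run, where 26 of 32 members had 1 value (to 3 decimals) on 2 or more arrays and 17 on 3 or more, against 9 and 2 members in the earlier run. The highest member was Pcna, with a mean of 11.14 over the 18 arrays, the 94.4th percentile of all genes. The 2 Wnt-low arrays of experiments 3 and 4 stood apart within their run, since together they gave the highest value of the 9 arrays for 22 of the 32 members. Counts of calls, the members' calls that are lost and median differences of Wnt-low cells are given with and without these 2 arrays. Of the 8 calls gained without them, only those of Top2a and Ccnb2 are named. In Wnt-high cells of experiments 7 to 9, 25 of the 32 members were above background on no array, all but Pcna, Tyms, Mcm4, Kif23, Mcm6, Cdc20 and Ccna2. For those 25, the part of a fitted difference of Wnt-high cells that comes from the later run is a lower limit in size at most.

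**Figure D2:**
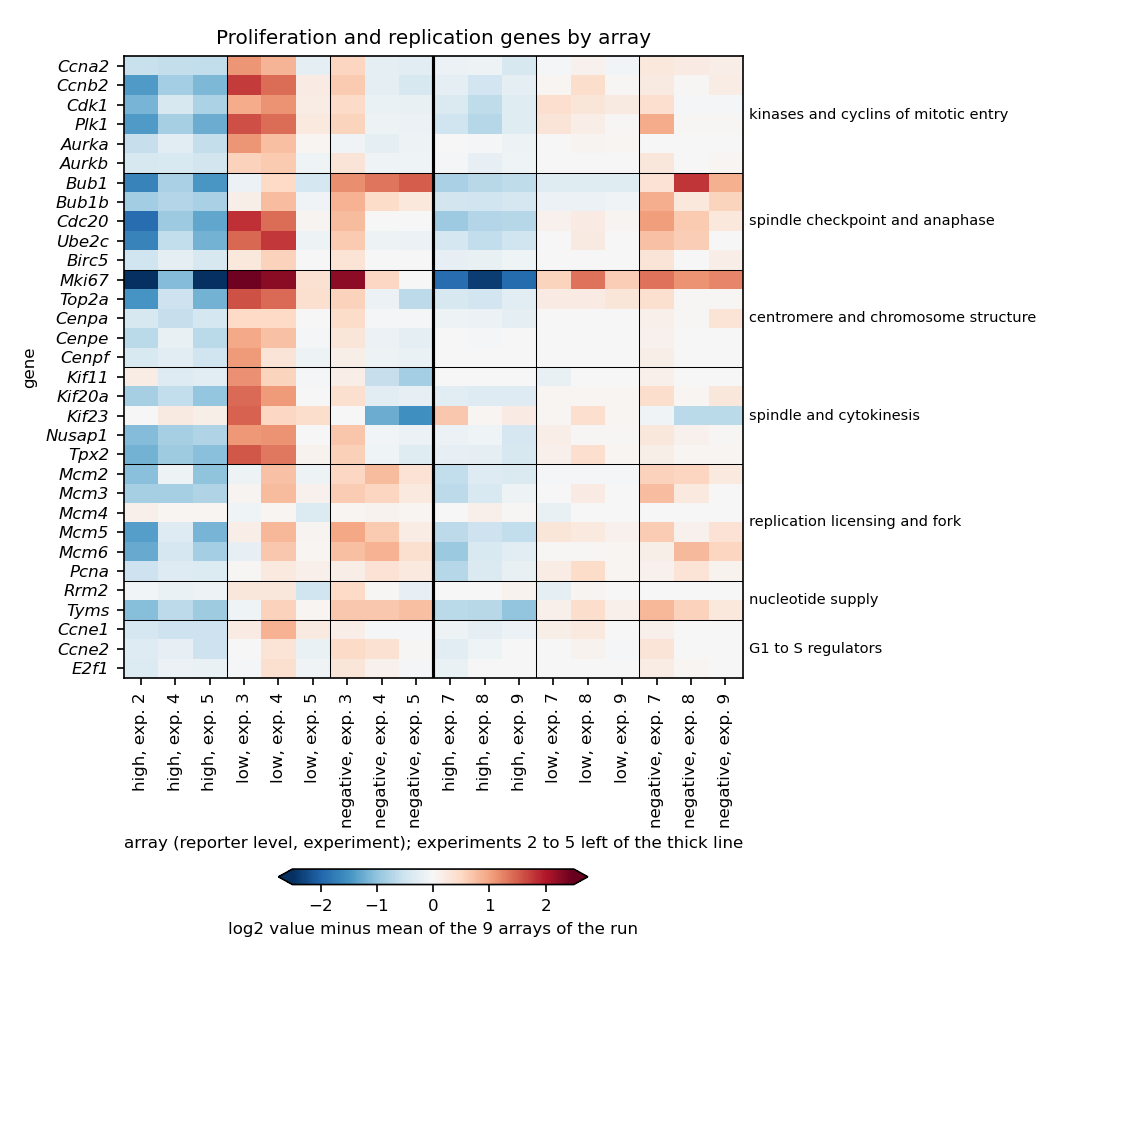
Log2 value of each of 32 genes on each array, minus the mean of the 9 arrays of its run, with genes in rows by role and arrays in columns by reporter level and experiment; the thick line parts the runs. Wnt-high columns are blue for most genes in both runs, Wnt-low columns of experiments 3 and 4 are the reddest of the earlier run, and Kif23 and Mcm4 do not follow the other rows.

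Proliferation genes were lower in Wnt-high cells than in both other groups. Against Wnt-negative cells, 21 of 32 members were lower and 1, Kif23, was higher, at an adjusted p under 0.05 in limma with the run as a block. Of all 30142 genes 40.3% passed the same test, 24.6% lower and 15.7% higher. Against Wnt-low cells 25 members were lower and 1, Mcm4, was higher, where 27.9% of all genes passed, 16.4% lower and 11.4% higher. Between Wnt-low and Wnt-negative cells 3 members were lower (Bub1, Bub1b and Tyms) and 1, Kif23, was higher, where 25.5% of all genes passed, 13.2% lower and 12.3% higher. The median log2 difference of the members was −0.68 for Wnt-high against Wnt-negative cells, 0.16 for Wnt-low against Wnt-negative cells and −0.70 for Wnt-high against Wnt-low cells. Over all genes the medians were −0.05, −0.03 and −0.01, in that order. The 3 comparisons share their arrays in pairs, so they are not independent of each other.

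The calls depend on the block for the run. With group as the only term, 2 members stayed lower in Wnt-high cells than in Wnt-negative cells (Mki67, adjusted p = 0.0146, and Bub1, adjusted p = 0.0286, in limma), 1 stayed lower than in Wnt-low cells (Mki67, adjusted p = 0.0194), and none passed between Wnt-low and Wnt-negative cells, where 10 had an unadjusted p under 0.05 with the block. Within experiments 2 to 5 alone, 13 members were lower in Wnt-high cells than in Wnt-negative cells, 1 (Bub1) was lower in Wnt-low cells than in Wnt-negative cells, and 18 were lower in Wnt-high cells than in Wnt-low cells. Within experiments 7 to 9 alone the counts were 21, 3 and 12, and the only higher member was Kif23 in Wnt-high against Wnt-negative cells. In that run 15, 15 and 19 members had no array above background in either group, in the same order of comparisons. Any call among those members only orders values below background and has no measured size. Of all 30142 genes, 5329, 1102 and 1843 were lower in the earlier run alone, in the same order, and 4514, 1964 and 3466 in the later. With no run block these numbered 1351, 221 and 630. With the experiment as a fixed replicate block, 15 members were lower in Wnt-high cells than in Wnt-negative cells. Against Wnt-low cells 21 were lower, with Mcm4 lost (adjusted p = 0.0852 in limma). Of all genes 7135 and 4863 were lower in these comparisons, and 4085 in Wnt-low against Wnt-negative cells, where 3917 were higher. Between Wnt-low and Wnt-negative cells that block gave 3 higher and 5 lower members, adding Cdk1 (adjusted p = 0.032) and Top2a (adjusted p = 0.0393) as higher and Mcm2 (adjusted p = 0.00899) and Mcm6 (adjusted p = 0.012) as lower. Without the Wnt-low arrays of experiments 3 and 4, limma called 27 members lower in Wnt-high cells than in Wnt-negative cells. It called 5 lower in Wnt-low than in Wnt-negative cells, and 21 lower in Wnt-high than in Wnt-low cells. In the last comparison Ccna2 (adjusted p = 0.138), Aurkb (0.103), Bub1 (0.0926) and Cenpe (0.354) were lost. In all, 8 calls of members were gained and 4 lost. The comparison of Wnt-high with Wnt-negative cells holds neither array, so calls gained there came only through the spread shared by all groups. Of all genes 7613, 3482 and 4825 were lower in that fit, in that order of comparisons.

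Groups that do not overlap in either run can be counted on the same arrays without a model. In the later run, 15 members had no array above background in Wnt-high or Wnt-negative cells, and 19 none in Wnt-high or Wnt-low cells. For members among these, such as Birc5 and Nusap1, a lack of overlap there only orders values below background. On every Wnt-high array, 22 members lay below every Wnt-negative array of the same run, and 23 lay below every Wnt-low array. Of all genes, 17.8% and 10.3% did so. No member lay above every Wnt-low array in Wnt-high cells in both runs, as 8.04% of all genes did. Kif23 was the only member above every Wnt-negative array in both runs, in Wnt-high cells (12.9% of all genes) and in Wnt-low cells (8.98%). Between Wnt-low and Wnt-negative cells only Bub1 lay below without overlap in both runs, as did 6.57% of all genes.

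**Figure D3:**
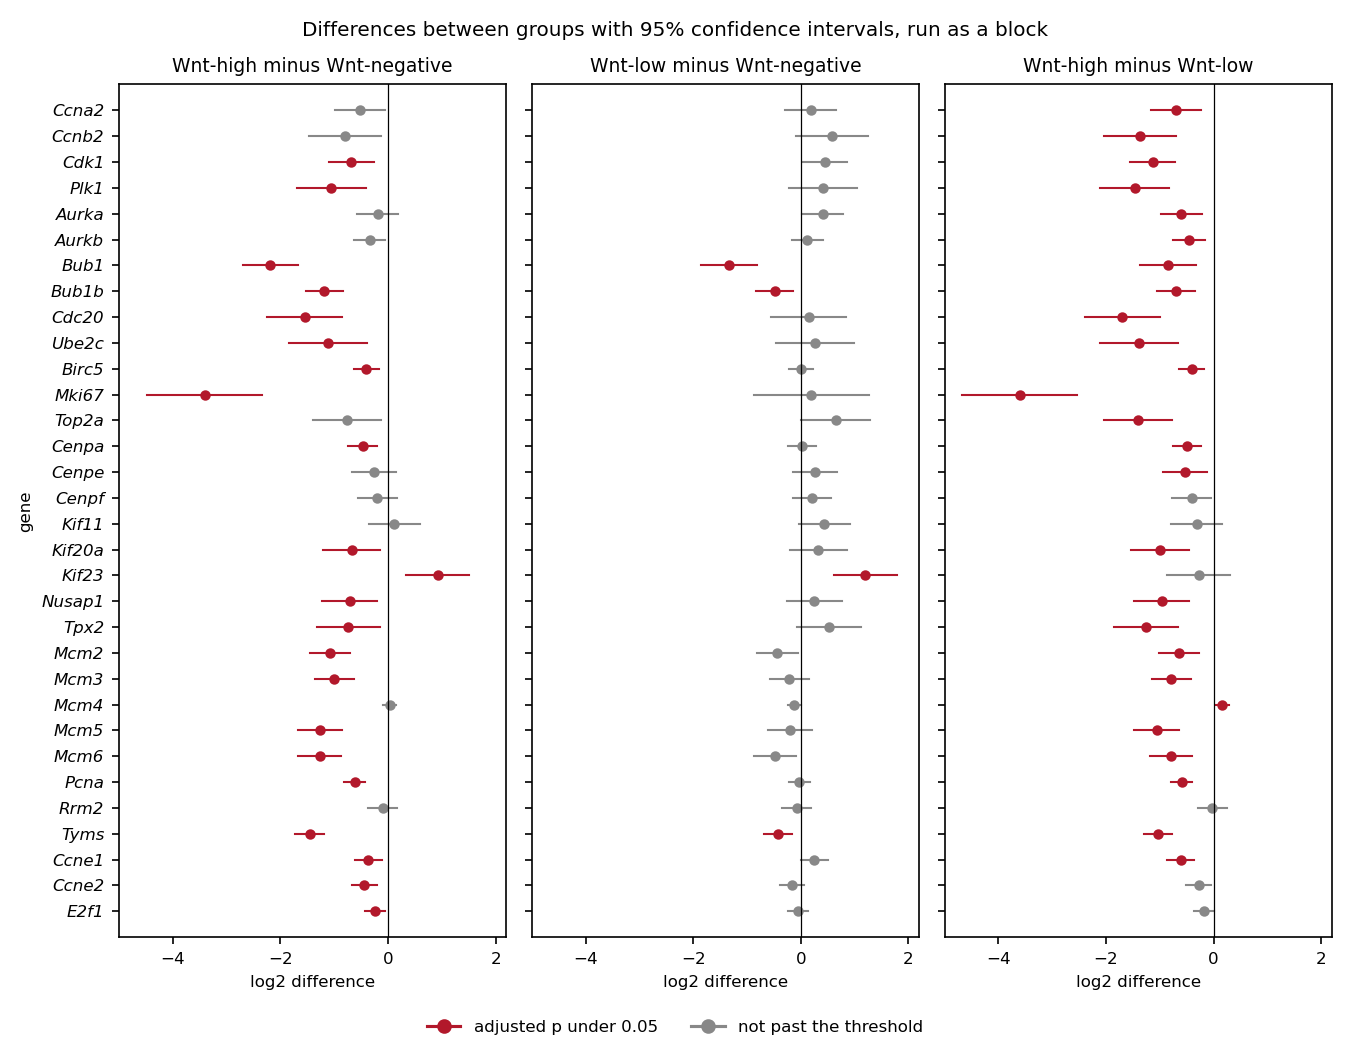
Log2 difference of 32 genes in 3 comparisons, as points with 95% confidence intervals from limma with the run as a block; red marks an adjusted p under 0.05. Most points lie left of 0 in the comparisons of Wnt-high cells, Mki67 farthest at −3.41 and −3.60, and Kif23 lies right of 0 against Wnt-negative cells.

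Mki67, whose protein coats mitotic chromosomes and is the common marker of dividing cells, had the widest differences. In experiments 2, 4 and 5 its Wnt-high values were 4.59, 7.43 and 5.68, against 10.95, 10.77 and 8.88 on Wnt-low arrays and 10.74, 9.02 and 8.49 on Wnt-negative arrays of experiments 3, 4 and 5. In experiments 7, 8 and 9 it read 3.96, 3.51 and 3.95 in Wnt-high cells, 6.43, 7.23 and 6.49 in Wnt-low cells and 7.23, 6.99 and 7.09 in Wnt-negative cells. All Wnt-high arrays lay below all arrays of both other groups of their run, while the Wnt-low and Wnt-negative arrays overlapped. Only 2 of the 6 Wnt-high arrays were above background. The log2 difference was −3.41 (SE 0.50) against Wnt-negative cells, with an adjusted p of 3.31e-05 in limma, and −3.60 (SE 0.50) against Wnt-low cells, with an adjusted p of 3.93e-05. Within experiments 7 to 9, where no Wnt-high array was above background, the differences are lower limits in size, of −2.19 against Wnt-negative and −1.80 against Wnt-low cells. Between Wnt-low and Wnt-negative cells Mki67 differed by 0.20 (SE 0.50, adjusted p = 0.82 in limma), which did not pass.

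Of the other genes of centromeres and chromosome structure, Cenpa, the histone H3 variant that marks centromeres, was lower in Wnt-high cells than in Wnt-negative cells by a log2 difference of −0.47 (SE 0.12), and by −0.50 against Wnt-low cells. Top2a, the topoisomerase that untangles replicated chromosomes, averaged 5.64 ± 0.50 in Wnt-high cells, 7.83 ± 0.64 in Wnt-low cells and 6.63 ± 0.61 in Wnt-negative cells in experiments 2 to 5 (SD, n = 3 each). Top2a was lower in Wnt-high cells than in Wnt-low cells by −1.41 (SE 0.30), with no overlap in either run. Against Wnt-negative cells its difference of −0.76 missed the threshold with an adjusted p of 0.0525 in limma. The adjusted p was 0.00808 in limma without the Wnt-low arrays of experiments 3 and 4. Those arrays enter this comparison only through the spread shared by all groups, and they were picked for their high values. The kinetochore motor gene Cenpe was lower only in Wnt-high against Wnt-low cells (adjusted p = 0.0487 in limma) and was above background on 3 of 18 arrays, none of them Wnt-high. That call was lost when any 1 experiment was left out, with the experiment as a block (adjusted p = 0.108) and without those 2 Wnt-low arrays (adjusted p = 0.354). Cenpf, a kinetochore protein gene, passed in no comparison.

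The spindle checkpoint and anaphase genes were the role group in which all 5 members were lower in Wnt-high cells, against each other group. Bub1, the checkpoint kinase that recruits other checkpoint proteins to kinetochores, read 4.78, 5.64 and 5.00 on the Wnt-high arrays of experiments 2, 4 and 5, against 6.32, 6.94 and 6.02 on Wnt-low and 7.62, 7.79 and 7.96 on Wnt-negative arrays of experiments 3, 4 and 5. Over experiments 7, 8 and 9 Bub1 read 3.65, 3.77 and 3.81 in Wnt-high cells, 4.14, 4.16 and 4.16 in Wnt-low cells and 4.82, 6.23 and 5.34 in Wnt-negative cells. The 3 groups did not overlap in either run and kept the order Wnt-high, Wnt-low, Wnt-negative, lowest first. Bub1 was lower in Wnt-high cells than in Wnt-negative cells by a log2 difference of −2.18 (SE 0.24, adjusted p = 1.75e-06 in limma). It was also lower in Wnt-low cells than in Wnt-negative cells, by −1.34 (SE 0.24, adjusted p = 0.000651 in limma). In experiments 2 to 5 these differences were −2.65 and −1.36. Only 1 of the 3 Wnt-high arrays of that run was above background, so the first is in part a lower limit. In experiments 7 to 9 both have only a lower limit in size, of −0.55. Neither Wnt-high nor Wnt-low arrays were above background for Bub1 in that run, so the order of those 2 groups there has no measured size, and the call between them (−0.85, adjusted p = 0.0146 in limma) was lost without the Wnt-low arrays of experiments 3 and 4 (adjusted p = 0.0926).

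Bub1b encodes BUBR1, the checkpoint protein that binds and holds CDC20. It averaged 4.99 ± 0.07 in Wnt-high cells, 6.06 ± 0.45 in Wnt-low cells and 6.32 ± 0.31 in Wnt-negative cells in experiments 2 to 5 (SD, n = 3 each). The difference of Wnt-high from Wnt-negative cells was −1.18 (SE 0.16, adjusted p = 1.67e-05 in limma), without overlap in either run. Only 1 of the 6 Wnt-high arrays was above background for Bub1b. Wnt-low cells were lower than Wnt-negative cells by −0.48 (adjusted p = 0.0391 in limma), a call lost when experiment 3, 5, 7, 8 or 9 was left out (adjusted p up to 0.17).

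Cdc20, which activates the anaphase-promoting complex once the checkpoint is satisfied, read 5.37, 6.36 and 5.97 in Wnt-high cells of experiments 2, 4 and 5. Against these stood 9.10, 8.66 and 7.35 in Wnt-low and 8.07, 7.29 and 7.29 in Wnt-negative cells of experiments 3, 4 and 5. In experiments 7, 8 and 9 Cdc20 read 4.87, 5.05 and 5.07 in Wnt-high cells, 5.90, 6.00 and 5.86 in Wnt-low cells and 6.83, 6.45 and 6.04 in Wnt-negative cells. The Wnt-high arrays were lowest in both runs, while Wnt-low arrays overlapped Wnt-negative arrays in the earlier run and lay below them in the later one. The log2 difference of Wnt-high cells was −1.55 (SE 0.33, adjusted p = 0.00104 in limma) from Wnt-negative and −1.69 (SE 0.33, adjusted p = 0.000749 in limma) from Wnt-low cells. Ube2c, the ubiquitin-conjugating enzyme of the same complex, was lower by −1.12 and −1.39 in the same comparisons, the first of which missed the threshold with the experiment as a replicate block (adjusted p = 0.0519). Birc5, which encodes survivin of the chromosomal passenger complex, was called lower in both, but was above background on no Wnt-high array. Its difference from Wnt-low cells was at least −0.08 in size in experiments 2 to 5, and that from Wnt-negative cells has no measured size.

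**Figure D4:**
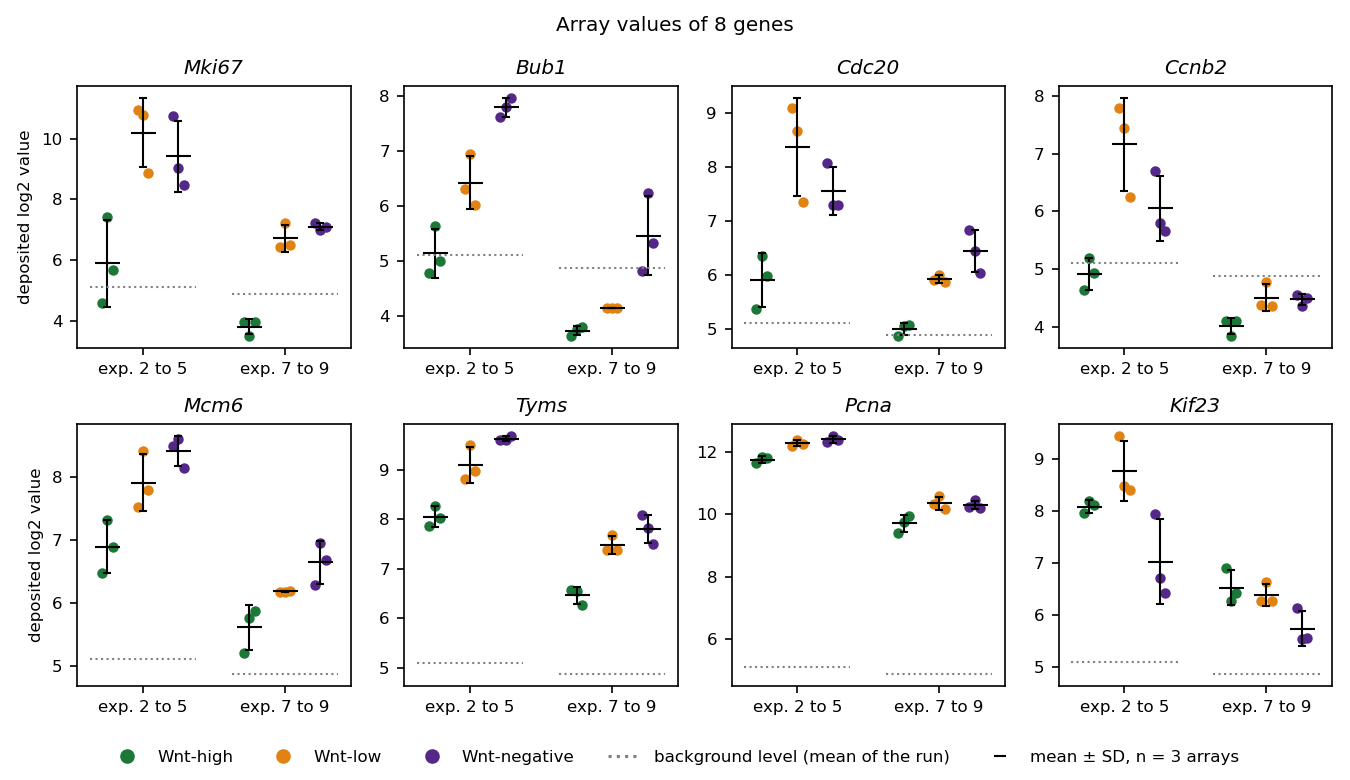
Deposited log2 values of 8 genes on 18 arrays, as points coloured by group within experiments 2 to 5 and experiments 7 to 9, with the mean and SD of 3 arrays in black and the mean background level of the run dotted; each panel has its own vertical axis. Wnt-high points are the lowest of their run for Mki67, Bub1, Cdc20, Ccnb2, Mcm6, Tyms and Pcna, and for Kif23 Wnt-negative points are lowest.

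All 6 measured kinases and cyclins of mitotic entry were lower in Wnt-high cells than in Wnt-low cells, and 2 of the 6 were lower in Wnt-high cells than in Wnt-negative cells. Ccnb2, a B-type cyclin that activates CDK1, read 4.63, 5.19 and 4.93 in Wnt-high cells of experiments 2, 4 and 5, against 7.79, 7.45 and 6.26 in Wnt-low and 6.70, 5.80 and 5.65 in Wnt-negative cells of experiments 3, 4 and 5. In experiments 7 to 9 Ccnb2 was above background on no array, between 3.84 and 4.77. The Wnt-high arrays were lowest in both runs, and the fit gave a log2 difference of −1.37 (SE 0.32, adjusted p = 0.00303 in limma) from Wnt-low cells. From Wnt-negative cells the difference was −0.80 (adjusted p = 0.055 in limma), which missed the threshold and passed without the Wnt-low arrays of experiments 3 and 4 (adjusted p = 0.0033). Here too those arrays enter only through the spread shared by all groups.

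Cdk1, the kinase that drives mitotic entry, averaged 5.79 ± 0.38 in Wnt-high cells, 7.32 ± 0.50 in Wnt-low cells and 6.61 ± 0.38 in Wnt-negative cells in experiments 2 to 5 (SD, n = 3 each). It was lower in Wnt-high cells by a log2 difference of −0.68 (SE 0.20, adjusted p = 0.0097 in limma) against Wnt-negative and −1.13 (SE 0.20, adjusted p = 0.000271 in limma) against Wnt-low cells. Plk1, the Polo kinase of spindle assembly, was lower in the same comparisons by −1.05 (SE 0.30) and −1.46 (SE 0.30). Ccna2, the A-type cyclin of S phase and mitosis, differed by −0.51 (adjusted p = 0.0757 in limma) and −0.69 (adjusted p = 0.0254 in limma). The Ccna2 call was lost with the experiment as a block (adjusted p = 0.0512) and without the Wnt-low arrays of experiments 3 and 4 (adjusted p = 0.138). Of the Aurora kinases, Aurka of the spindle poles differed by −0.19 from Wnt-negative cells (not called) and by −0.60 from Wnt-low cells, and Aurkb, the kinase of the chromosomal passenger complex, was above background on 3 arrays only, none of them Wnt-high. Both Aurora calls against Wnt-low cells were lost with the experiment as a block (adjusted p = 0.0858 for Aurka and 0.0549 for Aurkb) and without experiment 4.

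The spindle and cytokinesis genes held the exception. Kif23 encodes a kinesin of the centralspindlin complex, which bundles microtubules of the late spindle. On the Wnt-high arrays of experiments 2, 4 and 5 Kif23 read 7.96, 8.19 and 8.12, against 9.44, 8.48 and 8.41 on Wnt-low and 7.95, 6.72 and 6.42 on Wnt-negative arrays of experiments 3, 4 and 5. In experiments 7, 8 and 9 it read 6.91, 6.27 and 6.42 in Wnt-high cells, 6.27, 6.64 and 6.27 in Wnt-low cells and 6.14, 5.54 and 5.56 in Wnt-negative cells. Kif23 was above background on all 18 arrays, and the Wnt-negative arrays were the lowest of each run, though the lowest Wnt-high array (7.96, experiment 2) and the Wnt-negative array of experiment 3 (7.95) nearly met. It was higher in Wnt-high cells than in Wnt-negative cells by a log2 difference of 0.92 (SE 0.27, adjusted p = 0.0126 in limma), and in Wnt-low cells than in Wnt-negative cells by 1.20 (SE 0.27, adjusted p = 0.00383 in limma). The first call was lost without experiment 4 or 5 (adjusted p up to 0.0628), and the second held at 0.90 without the Wnt-low arrays of experiments 3 and 4 (adjusted p = 0.0217 in limma). Wnt-high and Wnt-low cells differed by −0.28 (SE 0.27, adjusted p = 0.562 in limma).

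Among the other motors, Kif20a, which acts at the late spindle in cytokinesis, was lower in Wnt-high cells by −0.67 against Wnt-negative and −0.996 against Wnt-low cells. Tpx2, the spindle assembly factor that activates Aurora A, was lower by −0.74 and −1.26 in the same comparisons. Nusap1, a microtubule-binding protein of the spindle, was called lower in both, with no Wnt-high array above background. In experiments 2 to 5 its difference was at least −0.48 in size against Wnt-negative and −1.05 against Wnt-low cells. The calls of Kif20a, Tpx2 and Nusap1 against Wnt-negative cells were lost with the experiment as a replicate block (adjusted p = 0.12, 0.12 and 0.0917 in that order) and when single experiments were left out (any of the 7 for Tpx2). In experiments 7 to 9 none of the 3 was above background on any array. Kif11, the motor that separates the spindle poles, passed in no comparison.

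Of 6 measured genes of replication licensing and the fork, 5 were lower in Wnt-high cells against both other groups. Mcm6, a subunit of the replicative helicase, read 6.48, 7.32 and 6.89 in Wnt-high cells of experiments 2, 4 and 5, against 7.53, 8.41 and 7.79 in Wnt-low and 8.49, 8.61 and 8.14 in Wnt-negative cells of experiments 3, 4 and 5. In experiments 7, 8 and 9 it read 5.22, 5.77 and 5.88 in Wnt-high cells, 6.18, 6.18 and 6.19 in Wnt-low cells and 6.30, 6.96 and 6.68 in Wnt-negative cells. Every Mcm6 value was above background, and the Wnt-high arrays were lowest in both runs. Its log2 difference was −1.27 (SE 0.18, adjusted p = 2.92e-05 in limma) from Wnt-negative and −0.79 (SE 0.18, adjusted p = 0.00337 in limma) from Wnt-low cells.

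The helicase subunits Mcm5, Mcm2 and Mcm3 were lower in Wnt-high cells than in Wnt-negative cells by −1.26, −1.08 and −0.999, with SEs of 0.17 to 0.19. Against Wnt-low cells these 3 were lower by −1.06, −0.65 and −0.78. No Wnt-high array of experiments 7 to 9 was above background for any of the 3. Pcna, the sliding clamp of the polymerases, read 11.64, 11.83 and 11.82 in Wnt-high cells of experiments 2, 4 and 5, against 12.19, 12.40 and 12.28 in Wnt-low and 12.32, 12.52 and 12.39 in Wnt-negative cells of experiments 3, 4 and 5. Pcna in experiments 7, 8 and 9 read 9.41, 9.77 and 9.94 in Wnt-high cells, 10.32, 10.59 and 10.18 in Wnt-low cells and 10.23, 10.46 and 10.21 in Wnt-negative cells. Its Wnt-high arrays were lowest in both runs and the other groups overlapped. Pcna fell in Wnt-high cells by a log2 difference of 0.62 (SE 0.09, adjusted p = 3.1e-05 in limma) against Wnt-negative and by 0.59 (SE 0.09, adjusted p = 9.08e-05 in limma) against Wnt-low cells. The difference between Wnt-low and Wnt-negative cells was −0.03 (SE 0.09).

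Mcm4, another helicase subunit, was the member with the narrowest spread and did not follow its partners. In experiments 2 to 5 it averaged 8.47 ± 0.05 in Wnt-high cells, 8.26 ± 0.20 in Wnt-low cells and 8.45 ± 0.03 in Wnt-negative cells (SD, n = 3 each). Wnt-high and Wnt-negative cells differed by 0.04 (SE 0.06, adjusted p = 0.652 in limma). Wnt-high exceeded Wnt-low cells by 0.16 (adjusted p = 0.0451 in limma), a call lost in 6 of 7 fits without 1 experiment.

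Tyms, thymidylate synthase, read 7.86, 8.27 and 8.03 in Wnt-high cells of experiments 2, 4 and 5, against 8.81, 9.50 and 8.97 in Wnt-low and 9.60, 9.60 and 9.68 in Wnt-negative cells of experiments 3, 4 and 5. For experiments 7, 8 and 9 Tyms read 6.57, 6.56 and 6.26 in Wnt-high cells, 7.38, 7.68 and 7.38 in Wnt-low cells and 8.08, 7.84 and 7.51 in Wnt-negative cells. Every array was above background and the Wnt-high arrays were lowest in each run. Tyms had the smallest adjusted p of the members, with a log2 difference of −1.46 (SE 0.12, adjusted p = 8.21e-08 in limma) from Wnt-negative and −1.03 (SE 0.12, adjusted p = 1.18e-05 in limma) from Wnt-low cells. Wnt-low cells were lower than Wnt-negative cells by −0.43 (adjusted p = 0.0163 in limma), a call lost without experiment 3, 5 or 7. Rrm2, the small subunit of ribonucleotide reductase, did not pass in any comparison, with differences of −0.10, −0.08 and −0.02 for Wnt-high against Wnt-negative, Wnt-low against Wnt-negative and Wnt-high against Wnt-low cells.

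The G1 to S regulators were dim. Ccne2, a cyclin of S phase entry, was above background on all 9 arrays of experiments 2 to 5 and was lower in Wnt-high cells than in Wnt-negative cells by −0.44 (SE 0.11, adjusted p = 0.00346 in limma). The other E-type cyclin, Ccne1, was above background on 2 arrays, both Wnt-low, and E2f1, a transcription factor that activates replication genes, on none. Both were called lower in Wnt-high cells than in Wnt-negative cells with no array of either group above background, so no size is given. Both calls were lost with the experiment as a replicate block (adjusted p = 0.0871 and 0.123). Against Wnt-low cells, Ccne1 was called lower with a lower limit of −0.21 in experiments 2 to 5.

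The place of Wnt-low cells in experiments 2 to 5 is given with and without the arrays of experiments 3 and 4. Those 2 arrays were singled out for their high values, so leaving them out was bound to lower many Wnt-low means. A single Wnt-low array of that run remains without them. With them, the mean was highest in Wnt-low cells and lowest in Wnt-high cells for 18 members, among them all 6 measured kinases and cyclins of mitotic entry, Mki67, Top2a, Cdc20 and Ube2c. For 11 members, among them Bub1, Bub1b, Tyms, Pcna and the helicase subunits Mcm2, Mcm3, Mcm5 and Mcm6, the order ran Wnt-negative, Wnt-low, Wnt-high, highest first. With the Wnt-low array of experiment 5 alone, 8 members had the first order and 20 the second, and Mki67, Cdc20 and Ube2c were among the 20. Of the 17 members above background on any array of experiments 7 to 9, 12 had the second order and 3 (Cdk1, Top2a and Pcna) the first. The median difference of Wnt-low from Wnt-negative cells over 32 members was 0.44 in experiments 2 to 5, or −0.15 without those 2 arrays, and −0.10 in experiments 7 to 9.

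In the test of the difference between runs, 9 members had an unadjusted p under 0.05 for Wnt-low against Wnt-negative cells, 19 for Wnt-high against Wnt-low cells and none for Wnt-high against Wnt-negative cells. No member and no gene passed after adjustment in limma, in any comparison, where 1757, 2183 and 1940 of all genes had an unadjusted p under 0.05, in that order of comparisons. Leaving out the Wnt-low arrays of experiments 3 and 4 leaves Wnt-low cells a single array in the earlier run. That array is assumed to vary like the others, so that fit cannot decide whether differences of Wnt-low cells changed between runs. The result that no gene passed did not hold over all genes in that fit, for either comparison with Wnt-negative cells. The median difference of Wnt-low from Wnt-negative cells over the members was then −0.15 in the earlier run and −0.10 in the later run.

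Differences were wider in experiments 2 to 5 than in experiments 7 to 9 for 31, 28 and 31 of 32 members, for Wnt-high against Wnt-negative, Wnt-low against Wnt-negative and Wnt-high against Wnt-low cells. In the later run 15, 15 and 19 members had no array above background in either group of these comparisons. Members below background in the later run have no measured size there.

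**Figure D5:**
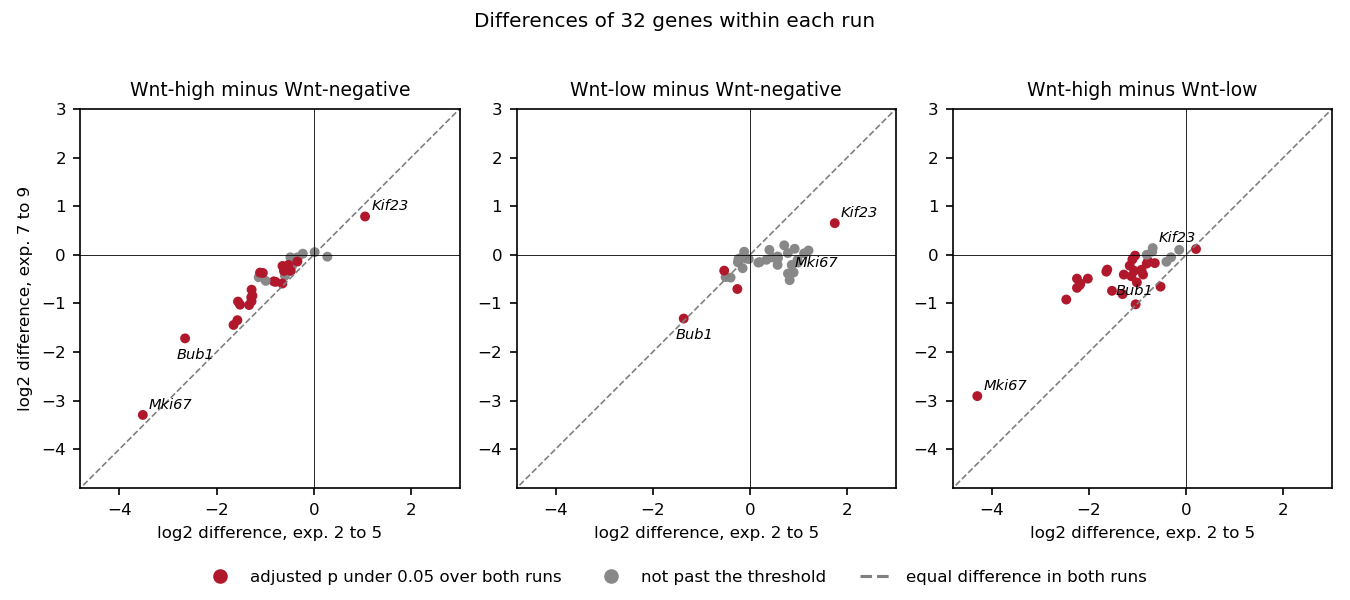
Log2 difference of each of 32 genes in experiments 7 to 9 against that in experiments 2 to 5, in 3 comparisons; red points had an adjusted p under 0.05 over both runs, and the dashed line marks equal differences. In the middle panel most points lie right of 0 on the horizontal axis but near or below 0 on the vertical axis, with medians of 0.44 and −0.10; the first is −0.15 without the Wnt-low arrays of experiments 3 and 4.

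Of 115 other measured cell cycle genes, Wnt-high cells had 42 lower and 17 higher than Wnt-negative cells, and 63 lower and 11 higher than Wnt-low cells. Wnt-low cells had 8 lower and 17 higher than Wnt-negative cells. The 42 and 17 genes are 36.5% and 14.8% of the list, where the shares of all genes were 24.6% and 15.7%. The 63 and 11 genes are 54.8% and 9.57%, against 16.4% and 11.4% of all genes, and the 8 and 17 genes are 6.96% and 14.8%, against 13.2% and 12.3%. The shares of higher genes thus lay near those of all genes. The median differences were −0.22 and −0.28 for Wnt-high cells against Wnt-negative and Wnt-low cells, and 0.10 for Wnt-low against Wnt-negative cells. In Wnt-high against Wnt-negative cells 4 of 6 nucleotide supply genes and 4 of 8 condensin genes were lower, none was higher, and the rest did not pass. Among them the kinases of nucleotide salvage Dck (−0.98) and Tk1 (−0.96) were lower, as were the condensin subunits Ncapd3 (−0.65) and Ncapd2 (−0.63). The polymerase and fork genes were split, with 11 lower and 6 higher of 23, and the highest were the clamp loader subunit Rfc2 (2.90, SE 0.22) and the chromatin assembly subunit Chaf1a (1.61, SE 0.16).

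Nek2, a kinase of the centrosome, was the other cell cycle gene with the widest difference between Wnt-high and Wnt-negative cells, 4.97 (SE 0.27, adjusted p = 4.15e-09 in limma), and Cdk2, the partner of cyclin E, was lower by −2.30 (SE 0.21). Their list of transcription factors and kinases had 8 of 18 genes lower and 5 higher. Of the kinetochore and checkpoint list (4 lower and 2 higher of 23), Spc24 of the NDC80 complex was lower by −1.99 and the securin gene Pttg1 was higher by 1.97. Of the origin list (5 lower and 3 higher of 16), Gins4 of the helicase complex was higher by 1.64 and Mcm10 was called lower with no Wnt-high array above background. Of the spindle motor and cytokinesis list (6 lower and 1 higher of 21), the citron kinase gene Cit was higher by 1.40 and Prc1, which bundles spindle microtubules, was lower by −1.20.

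Gmnn, which encodes geminin, the inhibitor of origin licensing, was higher in Wnt-low cells by 3.15 (SE 0.40, adjusted p = 4.09e-05 in limma) against Wnt-negative cells, and lower by −3.23 in Wnt-high against Wnt-low cells. Nek2 was also higher in Wnt-low cells than in Wnt-negative cells (2.34) and Cdk2 lower (−1.45). The clamp loader subunit Rfc2 (0.76), the single-strand binding subunit Rpa3 (0.63), the kinase gene Cit (0.69) and the spindle protein gene Ckap2l (0.61) were higher in this comparison, as was the centromere protein gene Cenpw (0.43). Thymidine kinase Tk1 (−0.51) and the condensin subunit Ncapd3 (−0.27) were lower. Sgo2a, a protector of centromere cohesion, was called higher with no Wnt-negative array above background, and the origin factor Mcm10 was called lower with no Wnt-low array above it. In Wnt-high against Wnt-low cells, 16 of 21 spindle motor and cytokinesis genes and 13 of 23 kinetochore and checkpoint genes were lower. Prc1 (−1.14) and Ckap2 (−0.96), a spindle protein gene, led the first list, and Spc24 (−1.69) the second. The nucleotide genes Dck (−0.72) and Rrm1 (−0.57), the condensin subunits Ncapd2 (−0.62) and Ncaph (−0.53) and the mitotic kinase gene Pbk (−1.44) were lower too. Against these, Nek2 (2.63), Rfc2 (2.15), Pttg1 (1.47), Gins4 (1.22) and Chaf1a (0.9996) were higher in Wnt-high cells.

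Markers of most epithelial cell types also differed between the groups. All 9 measured ciliated cell markers were higher in Wnt-high cells than in Wnt-negative cells (median 9.22), and their mean level in experiments 2 to 5 ran from 14.7 to 15.1 in Wnt-high cells, 9.92 to 13.9 in Wnt-low cells and 5.73 to 7.25 in Wnt-negative cells. Of 12 alveolar type II markers, 11 were lower in Wnt-high cells than in Wnt-negative cells (median −3.86) and 5 were lower in Wnt-low cells than in Wnt-negative cells. Their mean level in experiments 2 to 5 ran from 11.6 to 15.3 in Wnt-high cells, 14.9 to 16.4 in Wnt-low cells and at 16.6 on all 3 Wnt-negative arrays. All 8 club and goblet markers were higher in Wnt-high (median 4.46) and in Wnt-low cells (median 10.39) than in Wnt-negative cells, and 7 were lower in Wnt-high cells than in Wnt-low cells. Of the alveolar type I markers, 7 of 8 were lower in Wnt-high cells than in Wnt-negative cells and the other, Hopx, was higher (0.60), and 4 were lower and 1 higher in Wnt-high against Wnt-low cells. Of 5 basal cell markers none passed in Wnt-high against Wnt-negative cells (median 0.07), while Krt5 and Krt15 were higher in Wnt-low cells than in Wnt-negative cells, by 0.52 and 1.46, and Krt15 was lower in Wnt-high cells than in Wnt-low cells. The defining markers Trp63 and Ngfr were above background on no array. The part of these cell types in the differences of the proliferation genes was not tested.

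Most markers of the depleted cell types were never above background. Of 8 macrophage and monocyte markers, Cd68 was above it on all 18 arrays, and Ptprc, Tyrobp, Adgre1, Mrc1 and Fcer1g were above background on no array, and the mean level of the list lay at 4.74 to 4.95 in Wnt-high cells, 4.73 to 4.97 in Wnt-low cells and 4.95 to 5.10 in Wnt-negative cells in experiments 2 to 5. Also never above background were Cd3e, Cd3d, Ms4a1 and Nkg7 of lymphocytes, Pecam1, Cdh5, Tie1 and Cldn5 of endothelium and Col1a2, Col3a1 and Pdgfrb of fibroblasts. These were 4 of 6 lymphocyte, 4 of 6 endothelial and 3 of 5 measured fibroblast and smooth muscle markers. In Wnt-high against Wnt-negative cells, 1 macrophage and monocyte marker was higher (Csf1r, 0.27) and 2 were lower, among them Cd68 (−1.49), 2 lymphocyte markers were lower, and of endothelium Kdr was higher (1.92) and Esam lower (−4.26). The mean level of the endothelial list was highest in Wnt-low cells, at 5.63 to 5.98, against 4.45 to 5.41 in Wnt-high cells and 5.27 to 5.32 in Wnt-negative cells in experiments 2 to 5, and Kdr was higher by 6.01 in Wnt-low cells than in Wnt-negative cells. No fibroblast marker passed in these comparisons. Their part in the results was not tested.

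The median of 5222 intronic control probe sets also moved with the groups, at 5.10 to 5.24 in Wnt-high cells, 4.88 to 5.35 in Wnt-low cells and 5.55 to 5.62 in Wnt-negative cells of experiments 2 to 5. In experiments 7 to 9 it was 3.86 to 4.08 in Wnt-high cells, 4.00 to 4.36 in Wnt-low cells and 4.19 to 4.51 in Wnt-negative cells. The median of the exonic controls was lowest on the Wnt-high arrays of each run, the direction of most members. It was 10.70 to 10.85 in Wnt-high cells, 10.90 to 11.05 in Wnt-low cells and 10.98 to 11.01 in Wnt-negative cells of experiments 2 to 5. In the later run it was 9.05 to 9.23 in Wnt-high cells, 9.23 to 9.69 in Wnt-low cells and 9.29 to 9.47 in Wnt-negative cells. The part of both controls in the differences was not tested.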

How the data were processed

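The authors deposited log2 values for 72688 probe sets of 18 arrays and used RMA, which corrects background, equalises quantiles and summarises probes, per the submitters' processing notes. For software, chip library and genome build, the entry is: not given in the sources used here. Per the labels' protocols, 8 ng of total RNA was amplified per sample. Of 65956 probe sets that are not controls, 30604 have 1 symbol in the platform annotation, 2146 several and 33206 none, and 827 symbols were updated through RefSeq identifiers. Where a gene had several probe sets (355 genes), that of highest mean over 18 arrays stood for it, which left 30142 genes.

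Groups were compared in limma 3.58.1 (R 4.3.3; lmFit and eBayes, two-sided) with group and run as terms and Benjamini-Hochberg adjustment over all genes at 0.05. The run was the block because the 2 runs were normalized apart. On simulated data for Wnt-high against Wnt-negative cells with 30142 genes, the fit recovered 88% of changes of size 1 and all of size 2. The simulation changed few genes, where 40.3% passed in the data, and drew independent noise of equal spread in both runs. Its rates need not hold for these arrays. Nothing states that pools are separate animals, so p-values measure the spread between these samples. The number of arrays limits the precision. A gene above background on no array of a group has only a bound there, computed as the other group's mean minus the background level.

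Samples of 1 experiment share its number in the labels, and their deviations from the group means correlated at 0.49 to 0.80 in all 16 pairs (−0.15 to 0.41 with the run mean also removed). Up to 2 genes past the threshold, with the largest differences, were named of each list of other cell cycle genes. The members, lists and tests were chosen with earlier results of these data known. Alternatives were the block, each run alone, centring, quantile normalization, a filter on dim genes, the mean of probe sets, a trended robust variance, array weights, each experiment left out, and, chosen after seeing the data, leaving out the Wnt-low arrays of experiments 3 and 4.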

Additional observations from a re-analysis of the deposited data

Results flagged for a closer look

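After the run means were removed, 11 of 96 sets of 6 arrays (32 genes in 3 groups) had 1 outlying array. It lay farther from the others than Dixon's 95% limit of 0.625 of the range. For values of equal spread chance gives about 1 in 20. The spread differed between runs, as for Mcm2 in Wnt-low cells (SD 0.50 and 0.00). The genes also share arrays, so 1 in 20 need not apply here. In 8 of the 11 the array was the Wnt-low array of experiment 4, which was the highest of its group. Its deviation from the run mean was 0.821 for Mcm5, 0.801 for Mcm3, 0.737 for Mcm2 and 0.674 for Mcm6, 4 helicase subunits, and 0.766 for Bub1b and 0.493 for Bub1 of the checkpoint. For Ccne1 it was 0.878 and for E2f1 0.408, a gene above background on no array. Kif23 had its highest Wnt-low array in experiment 3 (1.476) and its highest Wnt-high array in experiment 7 (0.681). Rrm2 had its highest Wnt-negative array in experiment 3 (0.491).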

How the results depend on the processing

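No called member changed sign in the 19 alternatives. Counts are given for Wnt-high against Wnt-negative, Wnt-low against Wnt-negative and Wnt-high against Wnt-low cells, in that order, and the cause of a change was not tested unless named. With no block, which leaves the offset between runs in the spread, 0, 0 and 0 members were higher, 2, 0 and 1 lower, and 2824, 1061 and 1351 of all genes passed, against 12142, 7697 and 8402. Experiments 2 to 5 alone, with fewer arrays, gave 0, 0 and 0 members higher, 13 lower in the first and 1 in the second comparison, and 2532 and 3291 genes in the last 2 comparisons. Experiments 7 to 9 alone gave 0 higher members in the last 2 comparisons, 12 lower in Wnt-high against Wnt-low cells, and 7906 and 4471 genes in the first and second.

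With the experiment as a fixed replicate block, the second comparison gave 3 higher and 5 lower members and Wnt-high against Wnt-low cells 0 higher. It changed 15 calls of members, each named in the report, and no other. With the experiment as a random replicate block (consensus correlation 0.0733) no member's call changed. Quantile normalization and array weights each gave 6 lower members in the second comparison, leaving out the Wnt-low arrays of experiments 3 and 4 gave 5, and a trended robust variance gave 0 higher in Wnt-high against Wnt-low cells. Without each experiment in turn, the members higher were 0 to 1, 1 to 1 and 0 to 1, and those lower 16 to 20, 1 to 5 and 21 to 25. In the first comparison the higher member, Kif23, was lost without experiment 4 or 5, and in Wnt-high against Wnt-low cells Mcm4 was lost without experiments 2, 3, 5, 7, 8 or 9. In the second, 1 lower member passed without experiment 3, 5 or 7 and 5 without experiment 4. Of the 52 calls of members, 39 held without every experiment in turn, 16 of 22, 2 of 4 and 21 of 26. In the later run 15 members were above background on no array, so their differences have no measured size there.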

Other observations

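Regulators of multiciliogenesis reuse parts of the cell cycle machinery, and 7 of 8 listed were measured. Of these, 4 were higher and none lower in Wnt-high cells than in Wnt-negative cells, 6 were higher in Wnt-low cells than in Wnt-negative cells, and 3 were higher and 3 lower in Wnt-high cells than in Wnt-low cells. The basal body protein gene Ccdc78 was higher by 6.83 (SE 0.43) in Wnt-high and by 3.08 in Wnt-low cells, each against Wnt-negative cells. Myb, a transcription factor of dividing progenitors and of early ciliated cells, was higher by 6.35 (SE 0.31) and 3.81 in the same comparisons, and by 2.54 in Wnt-high against Wnt-low cells.

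The probe set that carries Mcm7, Mir25 and Mir93 averaged 7.00 ± 0.14 in Wnt-high cells, 7.08 ± 0.11 in Wnt-low cells and 7.23 ± 0.07 in Wnt-negative cells in experiments 2 to 5 (SD, n = 3 each). In experiments 7 to 9 it read 5.43 to 5.54 in Wnt-high cells, 5.54 on all 3 Wnt-low arrays and 5.54 to 5.63 in Wnt-negative cells, and which of the 3 genes it reads was not tested.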
